A study of Mus musculus with 4 samples.

Results

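A set of 7 genes that mark B lymphocytes and plasma cells, Cd79a, Cd79b, Ms4a1, Cd22, Pax5, Blk and Tnfrsf17, was followed in the kidney of mice after bile duct ligation (BDL), which ties off the bile duct and causes cholestasis, or after a sham operation. The members were taken as all probes whose RefSeq accession belongs to one of the 7 genes, which gave 8 probes of the 55668 analysed, 1 for each gene and 2 for Pax5. Total RNA from whole kidney was collected 2 weeks after the operation and hybridised to 1-colour arrays, 2 sham and 2 BDL, with 1 sample per array. The design text calls the replicates biological, and the strain, sex and age of the mice are not given in the sources used here. All 10 kidney markers checked, among them Umod, Lrp2 and Aqp2, were well above background on all 4 arrays.

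B cells recognise antigen through a surface immunoglobulin that cannot signal on its own. CD79a and CD79b form the signalling pair of this receptor, CD22 is a sialic acid-binding inhibitor of it, and BLK is a Src-family kinase downstream. PAX5 is the transcription factor that holds B cell identity and is lost in plasma cells, as is CD20, the product of Ms4a1, whereas BCMA, the product of Tnfrsf17, is a receptor for survival ligands on plasma cells. Resident B cells are sparse in healthy kidney.

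The RefSeq table of promoters (GRCm38.p6) held 4 of the 7 members. The promoters of Cd79a, a chain of the receptor, and of Cd22, its inhibitor, are shown because these genes act on the same receptor, the Cd79a probe being near the detection limit and the Cd22 probe bright. Capitals mark matches, on either strand, to the E-box CAGGTG, bound by E2A proteins, and to CCCNNGGG, the core of EBF1 sites, which in the Cd22 promoter do not overlap each other.
Cd79a, chr7:24897247-24897546, plus strand: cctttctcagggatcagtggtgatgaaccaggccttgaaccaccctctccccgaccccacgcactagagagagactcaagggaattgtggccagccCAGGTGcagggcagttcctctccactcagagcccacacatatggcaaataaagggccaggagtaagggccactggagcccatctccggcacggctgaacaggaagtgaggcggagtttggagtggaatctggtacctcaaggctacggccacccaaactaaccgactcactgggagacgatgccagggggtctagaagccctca
Cd22, chr7:30878979-30879278, minus strand: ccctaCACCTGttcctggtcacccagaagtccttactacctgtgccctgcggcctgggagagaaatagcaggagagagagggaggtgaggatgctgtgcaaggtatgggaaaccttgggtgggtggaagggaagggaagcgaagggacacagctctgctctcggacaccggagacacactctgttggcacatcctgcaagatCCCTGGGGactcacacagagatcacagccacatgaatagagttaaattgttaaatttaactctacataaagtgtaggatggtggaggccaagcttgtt
Of all 32851 promoters of this length in the table, 20.2% held the E-box and 13.7% the EBF1 core. The octamer ATTTGCAT, found in 1.74% of all promoters, and the ETS core CGGAAG, found in 16.9%, were searched on both strands as well and had no match in these 2 windows.

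Of the members, 2 stood lower in BDL kidneys, the receptor chain gene Cd79b and the CD20 gene Ms4a1, neither of them past the threshold. Cd22 was bright on all arrays, brighter than any other member, and did not separate the groups. Whether its signal comes from B cells was not tested. The other 4 genes were at or near background. Signals are given first as the scanner's processed intensity with its own error for the spot, and then as the log2 signal minus the array's own 75th percentile over all probes.

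The Cd79b probe read 428 ± 43 and 471 ± 48 in the sham kidneys, against 189 ± 20 and 296 ± 31 in the BDL kidneys. Both BDL kidneys were below both sham kidneys, and BDL replicate 1 was the lowest. On the scaled log2 axis the level was -0.79 ± 0.08 in sham and -1.82 ± 0.21 in BDL (SD, n = 2). The BDL level minus the sham level was -1.03 (SE 0.22; adjusted p = 0.774 by limma), a level 2.04-fold lower in BDL, and the 95% interval before adjustment ran from 1.37-fold to 3.04-fold lower. Of the 27707 features, 689 (2.49%) had a more negative difference. Whether the Cd79b signal comes from B cells was not tested. If it does, fewer B cells and less RNA per B cell cannot be told apart in RNA from whole kidney.

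The Ms4a1 probe was dim, with 41.9 ± 8.3 and 64.7 ± 9.0 on the sham arrays, where it was well above background. On the BDL arrays it read 9.60 ± 6.82 and 22.5 ± 6.8 and was not well above background on either. The raw medians of these spots were 89.0 and 109 in sham over local backgrounds of 39.0 and 35.0, and 55.0 and 70.5 in BDL over 34.0 and 35.0. With its BDL level taken as a bound, Ms4a1 was 2.35-fold lower in BDL. The bound takes, on each BDL array, the dimmest signal that still counted as well above background, or the spot itself if brighter. It leaves out the error of the sham level, so that 2.35-fold is a point estimate and no lower limit. The measured means were -3.90 ± 0.26 in sham and -5.83 ± 0.62 in BDL (log2, SD, n = 2), and the fitted difference was -1.93 (SE 0.37, limma adjusted p = 0.731). The 95% interval of this difference before adjustment ran from 1.94-fold to 7.49-fold lower in BDL. With normexp background correction the difference was -0.63 (SE 0.17, limma adjusted p = 0.855), a smaller fall than the bound gave. Ms4a1 was kept in the fit only through the sham group, so that its lower level in BDL is partly set by the filter.

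Cd22 read 927 ± 93 and 1726 ± 173 in the sham kidneys, against 1033 ± 103 and 1467 ± 147 in the BDL kidneys. The BDL values lay between the sham values, and the sham arrays were farther apart than the groups. BDL minus sham gave -0.15 (SE 0.29; adjusted p = 0.947 by limma), and the 95% interval of BDL over sham, from 0.532-fold to 1.54-fold, leaves room for a difference of either direction. It was 0.18 without sham replicate 2 and -0.47 without sham replicate 1.

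Cd79a, the partner chain of Cd79b, was near the detection limit. Its probe read 31.1 ± 7.1 and 34.5 ± 6.7 in sham and 22.9 ± 6.3 and 28.6 ± 6.6 in BDL, and it was well above background on sham replicate 2 alone. After scaling, the sham values of -4.51 and -4.62 lay above the BDL values of -5.02 and -5.04, but the error ranges of the 4 processed signals overlapped. No fold is given for it, and it was left out of the fit.

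Tnfrsf17 did not reach well above background anywhere. It read 21.1 ± 6.1 on sham replicate 1, and 8.99 ± 4.99, 7.18 ± 5.06 and 8.57 ± 4.94 on sham replicate 2, BDL replicate 1 and BDL replicate 2. The single higher spot was on 1 sham array, and the other 3 differed by less than their errors.

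Blk read between 6.61 and 9.37 on all arrays, with spot errors from 6.62 to 6.86, which is no measurable level. The first Pax5 probe was as low, between 5.38 and 9.33. The second Pax5 probe read 5.50 and 4.74 in sham, 23.0 ± 5.4 in BDL replicate 1 and 7.81 ± 4.74 in BDL replicate 2, and all 4 spots fell short of well above background. The probes of Pax5 disagreed in pattern on BDL replicate 1, and neither gives a level for the gene.

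**Figure D1:**
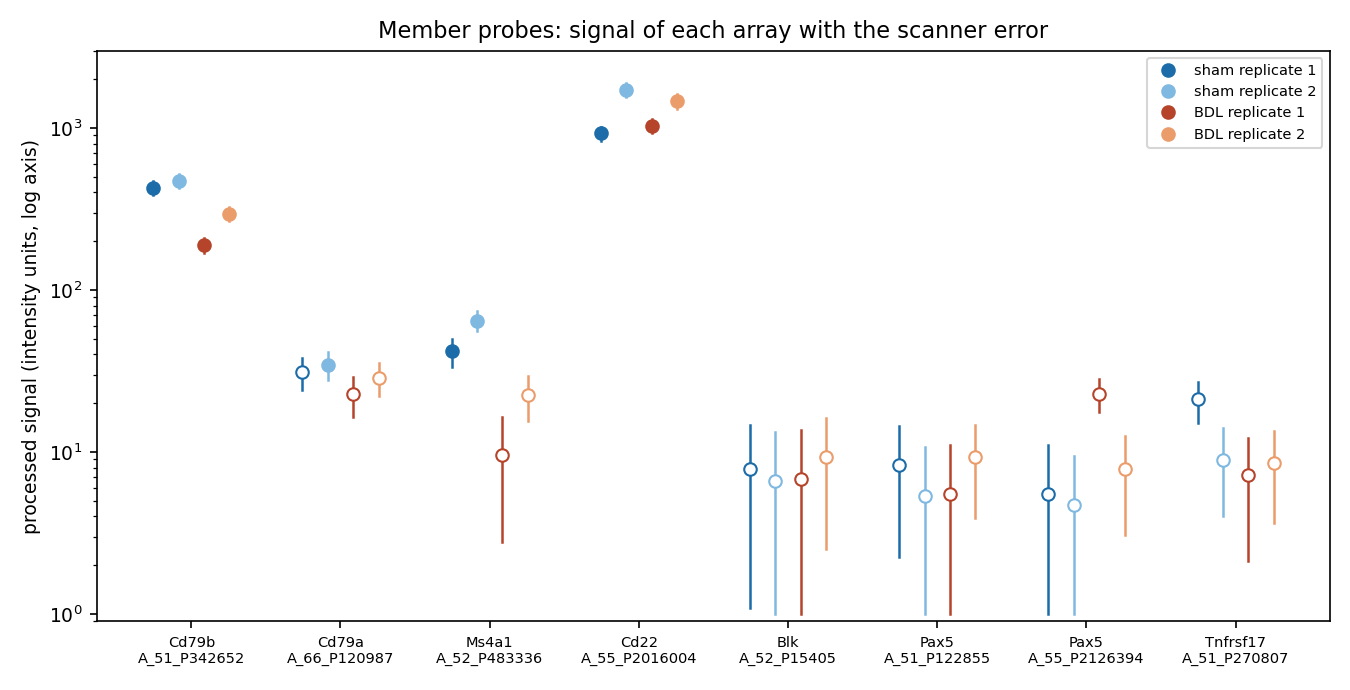
Processed signal (intensity units, log axis) of the 8 member probes on each of the 4 arrays, with the scanner's error for the spot as bars, drawn no lower than 1. Filled points were well above background and open points were not; both BDL points of Cd79b (189 and 296) lie below the sham points (428 and 471), Cd22 overlaps, and Blk, Pax5 and Tnfrsf17 are open throughout.

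With limma, 0 of the 27707 features (0%) and 0 of the 32280 retained probes (0%) passed an adjusted p of 0.05, so that no member could be called. Without adjustment, 1529 features (5.52%) and 1823 probes (5.65%) had a p under 0.05, Cd79b and Ms4a1 among both. A feature is a gene represented by its brightest retained probe, or an unnamed probe, and retained means that the scanner called the spot well above background in both kidneys of a group, which held for 3 member probes. Both BDL values lay below both sham values for Cd79b and Ms4a1, 2 of the 3 retained members, as for 19.3% of all features, while 17.1% of features lay the other way. Of the 5 member probes outside the filter, 2 (Cd79a and Tnfrsf17) lay lower in BDL without overlap against 11.8% of all such probes, and 1 (the second Pax5 probe) lay higher against 6.05%. With 3 measurable members, one of them kept through the sham group alone, these counts describe the members and are no test.

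The other genes of the lineage were described from fixed lists, ordered by role; 0 members of any list passed the adjusted threshold. Over all features the median difference was -0.01 and 51.3% were lower in BDL. Without overlap between the groups, 19.3% of all features were lower and 17.1% higher, the shares beside which the counts below stand.

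Among 16 surface molecules and co-receptors of B cells, 12 were measured, 8 lower and 4 higher in BDL, with a median of -0.31. Both BDL values were below both sham values in 5 of them and above in 1. Cd40, the receptor for T cell help, differed by -0.60 (SE 0.21, limma adjusted p = 0.891), and its sham values of -1.65 and -1.53 lay above the BDL values of -2.32 and -2.07. Siglecg, an inhibitory lectin related to CD22, differed by -0.42 (SE 0.25) and the tetraspanin gene Cd37 by -0.37 (SE 0.22), each without overlap, while a second, dimmer probe of Cd37 differed by 0.14 with overlap. Cxcr5, Tnfrsf13c, Fcrl1 and Fcrla were not retained.

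Of 16 signalling genes downstream of the receptor 15 were measured, 8 lower and 7 higher, with a median of -0.07. Without sham replicate 2, 12 were lower and 3 higher, with a median of -0.38, so that the balance of directions rested on that array. Bank1, a B cell scaffold protein gene, differed by -0.58 (SE 0.25), the kinase subunit gene Pik3cd by -0.58 (SE 0.32) and Ptpn6, which encodes the phosphatase SHP-1 that CD22 recruits, by -0.39 (SE 0.27). Inpp5d, which encodes the inhibitory lipid phosphatase SHIP-1, went the other way by 0.44 (SE 0.21). Many of these genes, such as Ptpn6 and Inpp5d, are also expressed in other leukocytes.

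Of 14 B cell transcription factor genes 13 were measured, 8 lower and 5 higher, with a median of -0.18. Ikzf1, which encodes the lymphoid factor Ikaros, was -3.24 and -3.10 in sham and -4.35 and -3.89 in BDL, a difference of -0.95 (SE 0.25, limma adjusted p = 0.854); its second probe was not retained. Spib, an ETS factor gene of B cells and plasmacytoid dendritic cells, was -3.68 and -3.68 in sham and -5.58 and -4.10 in BDL (-1.16, SE 0.53, well above background on 1 of 2 BDL arrays). Pou2af1, the gene of a B cell co-activator of octamer factors, differed most in the list, by -1.58 (SE 0.83), but its groups overlapped, with -3.13 and -4.26 in sham, -6.35 in BDL replicate 1 and -4.20 in BDL replicate 2. Id3, an inhibitor of E proteins that many cell types express, was higher by 0.68 (SE 0.31). The low values of Spib and Pou2af1 in BDL rested largely on BDL replicate 1, where neither was well above background. Both were kept in the fit only through the sham group. With probes well above background on all 4 arrays, 6 genes of the list were lower and 5 higher, with a median of -0.08.

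Of 6 pre-B cell genes 3 were measured. Vpreb3 differed by -0.52 (SE 0.29) without overlap, the polymerase gene Dntt by -0.18 (SE 0.21), and the surrogate light chain gene Vpreb1 by 0.05 (SE 0.60).

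Plasma cell genes lay on both sides of 0. Of 14 genes 13 were measured, 5 lower and 8 higher, with a median of 0.12 and without overlap in 2 lower and 5 higher. Derl3, a gene for degradation of misfolded proteins in the endoplasmic reticulum, was -1.10 and -1.21 in sham and -2.35 and -1.95 in BDL, a difference of -0.995 (SE 0.23, limma adjusted p = 0.813). Mzb1, a chaperone gene of B and plasma cells that aids antibody assembly, was -2.18 and -2.02 in sham and -3.17 and -2.71 in BDL (-0.84, SE 0.25). The order of the arrays was the same as for Cd79b in Derl3 and the same as for Ms4a1 in Mzb1, with BDL replicate 1 lowest. Fkbp11, a folding enzyme gene of the secretory pathway, did not reach well above background in either sham kidney. With the sham level taken as a bound it was 1.12-fold higher in BDL, and it was kept in the fit only through the BDL group. Pim2, a survival kinase gene, was 0.54 higher (SE 0.20, limma adjusted p = 0.891). Neither Fkbp11 nor Pim2 is restricted to plasma cells. Whether the signals of Derl3 and Mzb1 come from plasma cells was not tested. The 13 immunoglobulin genes of the fixed list were not matched to a probe through RefSeq accessions and were not analysed here.

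Signals that attract or sustain B cells were mixed as well. Of 12 genes 10 were matched and 8 measured, 5 lower and 3 higher, with a median of -0.10. Cxcl13, the chemokine that draws B cells through CXCR5, was -7.01 and -5.52 in sham, where it was not well above background. In BDL it was -4.76 and -3.19 and well above background (limma adjusted p = 0.885 for the measured difference). With the sham level taken as a bound it was 1.95-fold higher in BDL, a point estimate and no lower limit. It was opposite in direction to Cd79b and Ms4a1. Lta, the lymphotoxin alpha gene, differed by 1.02 (SE 0.63), with sham replicate 1 alone low and the other 3 arrays between -4.22 and -4.00. Pigr, which encodes the epithelial receptor that carries polymeric antibody, differed by -0.41 (SE 0.25), and its second probe by -1.34 with sham replicate 1 alone high. Il7 differed by -0.16 (SE 0.21). Cxcl13, Lta and Il7 were kept in the fit only through the BDL group. With probes well above background on all 4 arrays, 4 genes of the list were lower and 1 higher, with a median of -0.20.

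Genes of MHC class II, which B cells share with macrophages, dendritic cells and injured tubules, were lower in 7 of 7 measured members of 9, with a median of -1.44. H2-Ob and H2-Oa encode the chains of H2-O, which in mice is found mainly in B cells and thymic epithelium. H2-Ob was -2.38 and -2.79 in sham and -4.04 and -3.50 in BDL (-1.19, SE 0.29, limma adjusted p = 0.824), and its second probe differed by -1.05, also without overlap. H2-Oa differed by -0.89 (SE 0.41), with sham replicate 2 at -3.00 close to BDL replicate 2 at -3.12. The classical genes H2-Ab1 (-1.93, SE 1.17) and H2-Eb1 (-1.40, SE 0.85) were high on sham replicate 1 alone, at 8.47 and 7.46, against 4.68 to 4.98 and 4.72 to 4.96 on the other 3 arrays. The median of the list was -0.15 without sham replicate 1 and -3.00 without sham replicate 2.

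**Figure D2:**
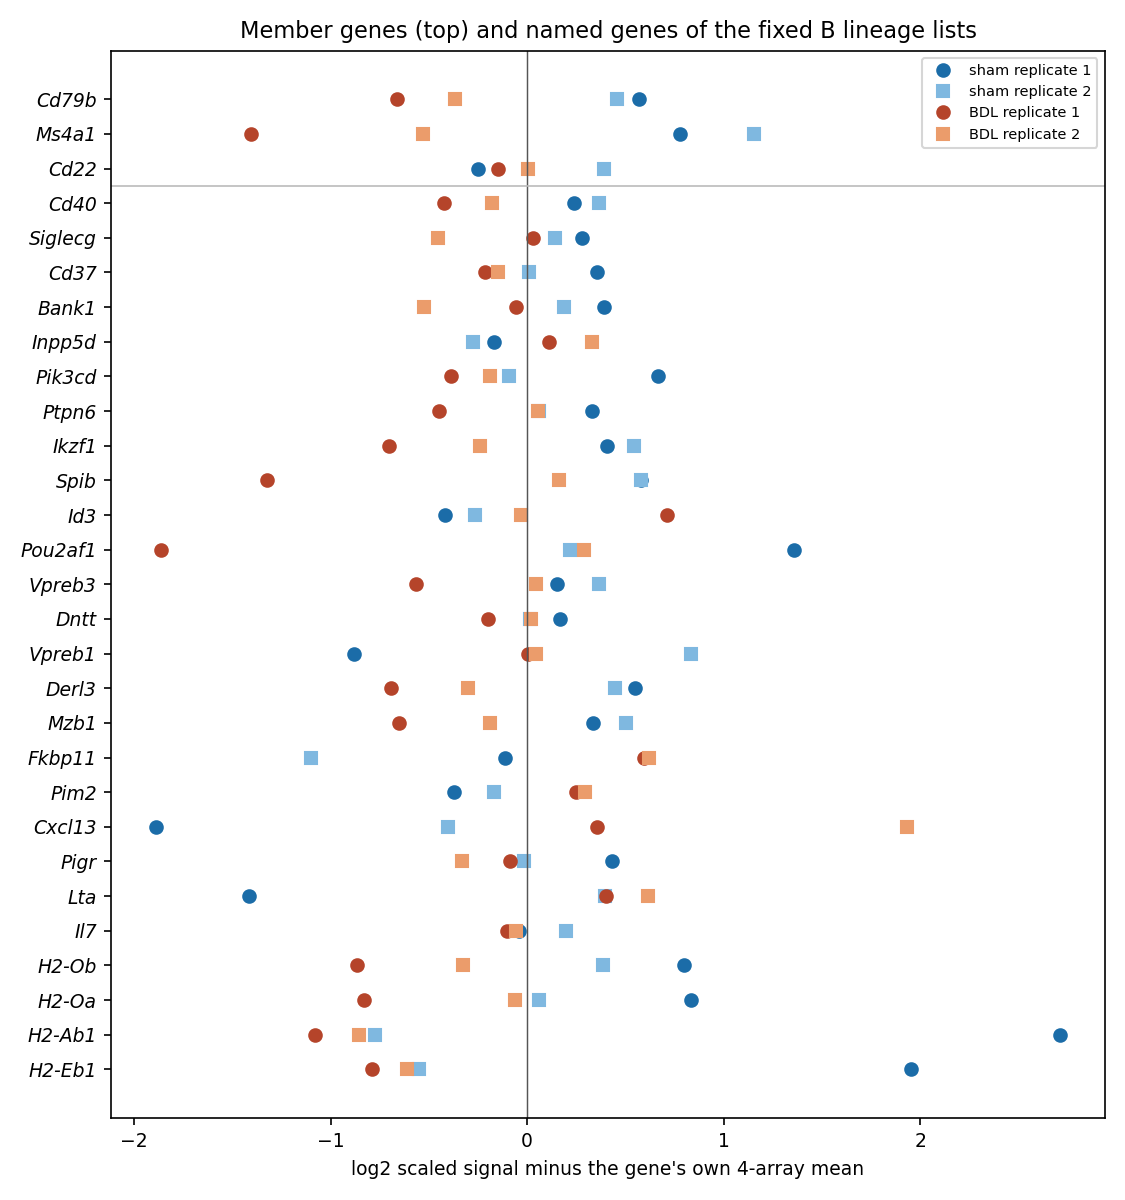
Log2 scaled signal of each gene on each array minus the gene's own mean over the 4 arrays, for the 3 retained members (above the grey line) and the named genes of the fixed lists. Cd79b, Ms4a1, Ikzf1, Derl3, Mzb1 and H2-Ob have both BDL points left of both sham points, whereas H2-Ab1 and H2-Eb1 are set apart by sham replicate 1.

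**Figure D3:**
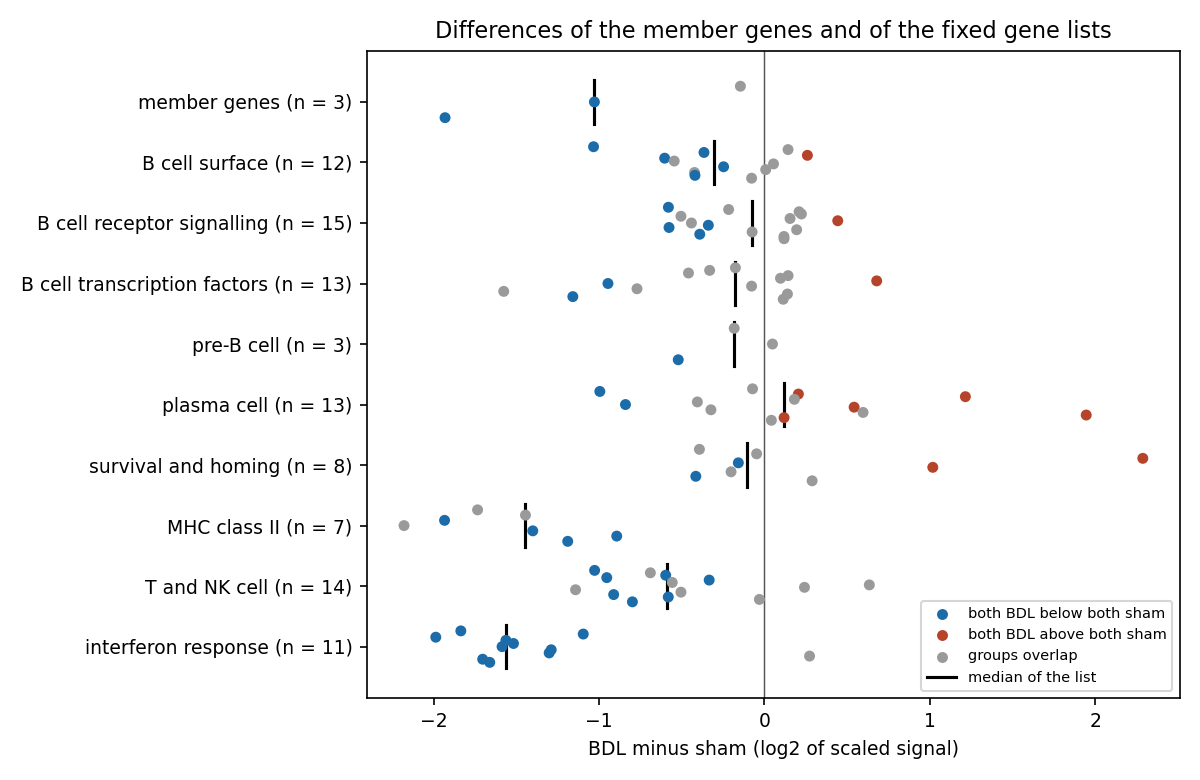
Difference BDL minus sham (log2 of scaled signal) of every measured gene in the member set and 9 fixed lists, coloured by whether the groups overlap, with the list median as a black bar. The medians of the B cell surface (-0.31) and transcription factor (-0.18) lists lie left of 0, the plasma cell median (0.12) lies right, and the MHC class II (-1.44) and interferon (-1.56) medians are farther left.

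Markers of other cells also differed between these arrays. Among all features, 19.3% were lower and 17.1% higher without overlap. T and NK cell genes were lower in 12 of 14 measured members (7 without overlap), with a median of -0.59, which was -0.23 without sham replicate 1 (10 lower) and -1.02 without sham replicate 2. The summed signal of the list, in units of the array's 75th percentile, was 15.4 and 8.96 in sham and 9.74 and 8.51 in BDL. Interferon response genes were lower in 10 of 11, all 10 without overlap, with a median of -1.56 and sums of 33.5 and 12.5 in sham against 9.84 and 7.76 in BDL. Without sham replicate 1, 10 of 11 were again lower and the median was -0.74. In both lists sham replicate 1 had the highest sum. On the scaled axis it was also the higher sham array in Cd79b (-0.74 against -0.85), while sham replicate 2 was the higher in Ms4a1 (-3.71 against -4.09) and in Cd22. Without sham replicate 1, Cd79b differed by -0.97 and Ms4a1 by -2.12. Macrophage genes had sums of 74.3 and 61.6 in sham and 65.1 and 59.7 in BDL and a median of 0.13, and 3 of 9 were higher and 1 lower without overlap. The sign of this median depended on the arrays used: it was 0.70 without sham replicate 1 (8 of 9 higher), -0.59 without sham replicate 2 (6 of 9 lower) and -0.06 without BDL replicate 2.

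Plasmacytoid dendritic cell genes had a median of -0.01 over 7 genes, with sums of 98.4 and 81.0 in sham and 79.0 and 67.6 in BDL. Siglech, the brightest probe of the list, makes up most of each sum and differed by -0.26. With any single array left out the median lay between -0.26 and -0.15. Markers of lymphoid stroma and lymphatic vessels had a median of 0.60 over 6 genes, and of 0.18 with normexp. Of the 6, 5 were higher and 1 lower, with 4 higher and 0 lower without overlap. Their sums were 4.56 and 2.50 in sham and 3.67 and 3.60 in BDL. Ccl19, the brightest gene of the list on sham replicate 1 (1.66), makes up most of that array's sum and differed by -0.39. Cxcl13, also in this list, was well above background in BDL only. Madcam1 differed by 0.56 and its second, dimmer probe by -0.14. Glycam1, Chst4 and Lyve1 were not retained. Neutrophil genes had a median of 0.53 over 8 genes and sums of 107.7 and 134.6 in sham and 131.4 and 144.2 in BDL. These sums are mostly Csf3r, by far the brightest probe of the list, which differed by 0.06. S100a8, S100a9 and Cxcr2 differed by 2.08, 2.10 and 2.41 (SE 1.08, 1.15 and 1.24), with sham replicate 2 the lowest array in each. Of the 8 genes 6 were higher and 2 lower, Ltf by -1.03 and Elane by -0.06. Cxcr2 was kept in the fit only through the BDL group. With probes well above background on all 4 arrays, 4 genes were higher and 2 lower, with a median of 0.26. Adipocyte genes, 5 of 8 measured, summed to 176.9 on BDL replicate 1, the array lowest in Cd79b and Ms4a1, against 15.2 and 29.8 in sham and 14.3 in BDL replicate 2, while Adipoq, Plin1 and Lep were not retained. Without BDL replicate 1 Cd79b differed by -0.88 and Ms4a1 by -1.49. The part of these other cells in the values of the members was not tested.

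**Figure D4:**
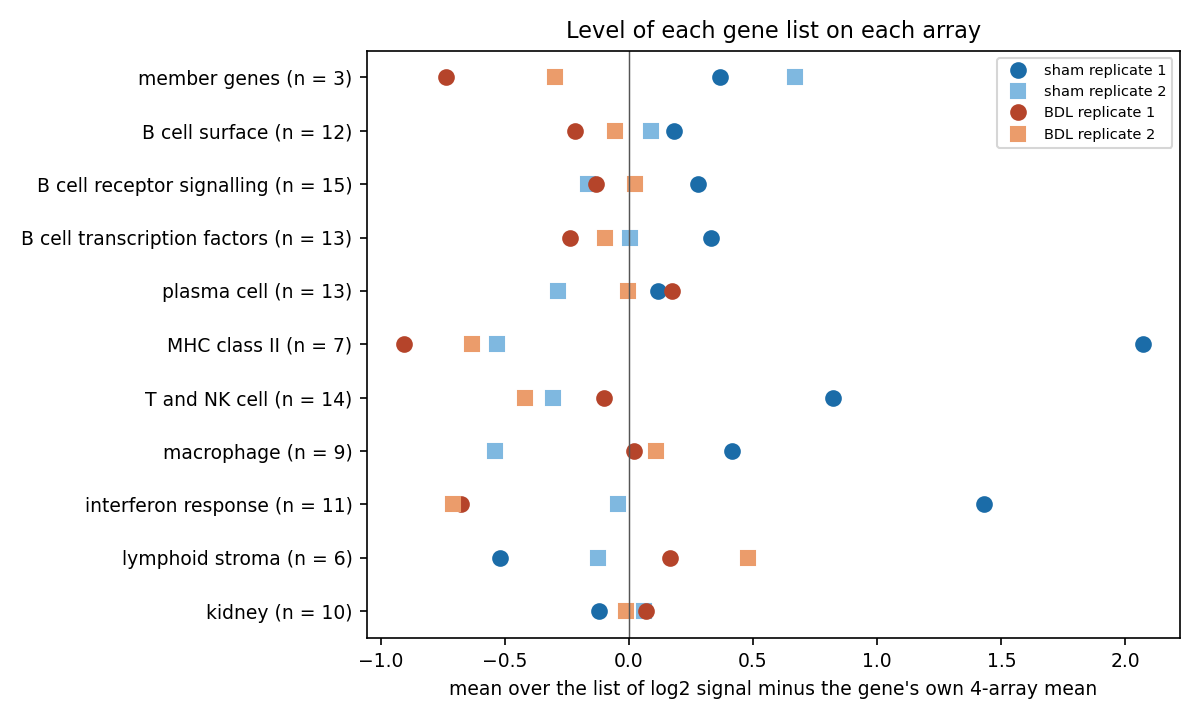
Mean over each list of the log2 signal minus the gene's own mean over the 4 arrays, by array. The mean of the 3 retained member genes has both sham arrays (0.37 and 0.67) to the right of both BDL arrays (-0.74 and -0.30). Ms4a1, with the largest difference among them, was kept only through the sham group, and Cd22 by itself does not separate the groups. The B cell surface, transcription factor, interferon and MHC class II lists also have both sham arrays right of both BDL arrays, the last by a small margin (-0.53 on sham replicate 2 against -0.63 on BDL replicate 2). The lymphoid stroma list lies the other way, with the sham arrays at -0.52 and -0.12 and the BDL arrays at 0.16 and 0.48. It includes Cxcl13, kept only through the BDL group. Sham replicate 1 is farthest right in MHC class II, T and NK cell and interferon genes. At lower values it is also farthest right in the B cell surface (0.18), signalling (0.28), transcription factor (0.33) and macrophage (0.41) lists.

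The genes closest in pattern to the members were found by the root mean square difference, over the 4 arrays, between each gene's centred log2 values and the mean centred profile of the 3 retained members, among 15019 named genes. The 6 closest were St8sia5 (0.07), a sialyltransferase gene, Cd6 (0.07), a receptor gene of T cells, Slc22a19 (0.07), an organic anion transporter gene, Ikzf1 (0.07), Unc13c (0.08) and Rfesd (0.09). Cd79b lay at 0.16 from that mean profile, and Ms4a1 and Cd22 at 0.47 each, so that the mean resembles Cd79b more than either of the others. With 4 arrays this order is a description only.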

How the data were processed

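Kidney RNA of 2 sham and 2 BDL mice was read on 1-colour arrays; the submitters' processing notes name Agilent Feature Extraction 11.0.1.1. The deposited processed signal is an intensity, background-subtracted within each array, per the file headers; the flags and raw medians come from the same files. By array, 57.7% to 63.1% of spots were well above background, with 0 saturated. Precision is limited by having 2 arrays in a group. The authors' deposited value table holds intensities that equal the processed signal over a fixed number for each array, 709, 844, 739 and 939.8 in the order sham then BDL, with column medians of 0.328, 0.339, 0.329 and 0.330; what set that number is unknown.

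Control and outlier spots were dropped, spots of a probe were averaged on the log2 scale, and the array's 75th percentile was subtracted. Accessions were matched without versions to RefSeq names (GRCm38.p6), naming 27229 of 55668 probes. The operation was the only term in limma 3.58.1 (R 4.3.3), two-sided, with Benjamini-Hochberg adjustment over all 27707 features or 32280 probes and a threshold of 0.05. An exact permutation test of 2 against 2 cannot go below p = 0.333. The files hold no mean signal, so normexp (offset 50) used the median signal. Of each list, the up to 4 genes with the smallest p are named. A gene that this rule takes is not reported here. Cd22, Cd79b and Ms4a1 were compared again under each alternative listed in the closing section. The members and lists were chosen with earlier results of these data known. Same-numbered arrays had deviations from their group means that correlated at 0.08 across features, and the labels do not pair them.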

Additional observations from a re-analysis of the deposited data

How the results depend on the processing

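The count of features and of probes past the threshold was 0 under each of the alternatives run (normexp, quantile normalization, another percentile, no filter, a filter on all 4 arrays, the deposited value table, leaving out each array, the replicate block and, for features, the mean of a gene's probes). The smallest adjusted p of limma under any of them was 0.0835, with normexp. Cd79b was lower in BDL in 12 of 12 alternatives, from -1.18 to -0.88 (adjusted p from 0.387), and Ms4a1 in 11 of 11, from -2.37 to -0.63 (adjusted p from 0.405); Ms4a1 has no value where probes had to be well above background on all 4 arrays. Cd22 ranged from -0.47 to 0.18 and turned sign without sham replicate 2 (0.18 in both the gene and the probe fit). Where an array was left out, the lone array of a group was assumed to vary like the other group. With the replicate number as a block, Cd79b had an adjusted p of 0.766, Ms4a1 of 0.483 and Cd22 of 0.933, and the block changed no call; the numbers are not shown to pair the animals. The median of the B cell surface list stayed between -0.38 and -0.18 (-0.19 without BDL replicate 1). That of the transcription factor list lay between -0.33 and -0.08 (-0.33 without sham replicate 2, -0.26 without BDL replicate 1, -0.08 with the filter on all 4 arrays or without sham replicate 1, -0.09 without BDL replicate 2). Those of the plasma cell list (-0.07 without sham replicate 2, 0.33 without sham replicate 1, 0.03 without BDL replicate 1), the signalling list (0.02 without the filter, -0.38 without sham replicate 2) and the survival and homing list (0.11 without sham replicate 1) turned sign, as did those of the macrophage list (-0.59 without sham replicate 2, -0.06 without BDL replicate 2) and the plasmacytoid dendritic cell list (0.01 with quantile normalization or the other percentile). Signal over background limits Cd79a, Pax5, Blk and Tnfrsf17, which have no measurable difference here.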
